A study of Mus musculus with 30 samples.

Results

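The regions described here are stretches of mouse chromatin that were enriched for the transcription factor Ikaros in thymocytes of both genotypes studied and that had no listed Ikaros region in pre-B cells of either genotype. A member was a region of the WT thymocyte list that overlapped a region of the homo thymocyte list by at least 1 bp and no region of either pre-B list. This rule took 1305 of the 3572 WT thymocyte regions, so the members were chosen by the listed Ikaros peaks themselves. Of the others, 1512 were also shared by both thymocyte genotypes but overlapped a pre-B region, and 755 overlapped no homo thymocyte region. Because the 4 Ikaros lists chose the members, their presence in thymocytes and absence from the pre-B lists is a description and not a finding.

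The mice were C57BL/6 and carried the G158R missense substitution of Aiolos, the product of Ikzf3, on both copies (Ikzf3m/m, called homo), on 1 copy (Ikzf3+/m, het) or on none (Ikzf3+/+, WT). Ikaros and, with a separate antibody, Aiolos were mapped by ChIP-seq in homo and WT cells, with 1 library for each antibody, genotype and cell type. Thymocytes came from the thymus. The pre-B cells for ChIP-seq were a culture: B220+ IgM- marrow cells kept with IL-7, SCF and Flt3L over a layer of Tst-4 stroma. RNA was sequenced in 3 libraries per genotype from bone marrow cells sorted as pre-B (positive for B220, AA4.1 and CD24, negative for IgM and CD43) and as the earlier pre-pro B stage (positive for B220, AA4.1 and CD43, negative for IgM and CD24). The mutation is carried by all cells of the mouse, no label says that replicates were separate animals, and p-values therefore measure only the spread between these libraries. No thymocyte RNA was analysed here, so the thymocyte label could not be set against marker RNA.

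Ikaros, the product of Ikzf1, and Aiolos are zinc finger proteins of the same family that pair with themselves and with each other and bind DNA at sites with the core GGGAA. Both act in lymphocytes, where they recruit chromatin remodelling complexes and repress or maintain genes of T and B cell development. In the thymus Ikaros is known for its part in setting the T cell receptor signalling threshold, in restraining Notch target genes and in CD4 and CD8 coreceptor expression, whereas Aiolos is most prominent in the B lineage.

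The promoters below show what DNA lay under members at gene starts. Of the 92 T lineage genes examined, Rag1 and Themis had a RefSeq promoter window overlapped by a member, and both are printed. A window runs from 250 bases before to 50 after a gene start (GRCm38.p6). Other T lineage genes, among them Sh2d1a, Sla, Cd4, Cd2, Cd28, Cd8b1, Thy1, Tox and Ets1, had no window in the set used. Members at their starts could not be counted. Utp3, Rasa1 and 1810037I17Rik are shown because they had the highest Ikaros fold in WT among protein-coding genes whose window held CGGAAG within a member. Each is the stretch of 250 bases before the gene start, written 5′ to 3′ on the gene's strand, with capitals marking every GGGAA or CGGAAG on either strand (TTCCC and CTTCCG on the strand printed). They lie at chr2:101649533-101649782 (minus strand) for Rag1, chr10:28668145-28668394 (plus) for Themis, chr5:88554212-88554461 (plus) for Utp3, chr13:85289487-85289736 (minus) for Rasa1 and chr3:122924147-122924396 (plus) for 1810037I17Rik.
Rag1: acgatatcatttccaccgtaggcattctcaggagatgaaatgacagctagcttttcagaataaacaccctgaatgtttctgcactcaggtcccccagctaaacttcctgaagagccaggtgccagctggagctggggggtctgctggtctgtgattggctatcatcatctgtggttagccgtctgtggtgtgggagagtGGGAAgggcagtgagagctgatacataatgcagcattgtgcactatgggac
Themis: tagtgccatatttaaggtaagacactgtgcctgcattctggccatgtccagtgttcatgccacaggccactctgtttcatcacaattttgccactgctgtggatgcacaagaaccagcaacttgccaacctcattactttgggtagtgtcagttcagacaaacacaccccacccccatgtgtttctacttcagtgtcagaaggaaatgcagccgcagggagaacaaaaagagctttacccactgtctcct
Utp3: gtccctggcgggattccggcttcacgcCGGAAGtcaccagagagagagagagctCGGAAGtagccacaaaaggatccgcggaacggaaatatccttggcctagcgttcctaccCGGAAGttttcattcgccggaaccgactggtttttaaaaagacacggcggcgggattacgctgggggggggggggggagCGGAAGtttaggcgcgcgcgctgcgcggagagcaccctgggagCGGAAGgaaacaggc
Rasa1: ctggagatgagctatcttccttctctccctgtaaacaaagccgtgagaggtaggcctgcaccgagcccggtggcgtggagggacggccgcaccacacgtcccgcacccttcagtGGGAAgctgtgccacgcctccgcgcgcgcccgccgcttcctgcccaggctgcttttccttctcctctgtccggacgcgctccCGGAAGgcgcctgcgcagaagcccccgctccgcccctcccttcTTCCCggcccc
1810037I17Rik: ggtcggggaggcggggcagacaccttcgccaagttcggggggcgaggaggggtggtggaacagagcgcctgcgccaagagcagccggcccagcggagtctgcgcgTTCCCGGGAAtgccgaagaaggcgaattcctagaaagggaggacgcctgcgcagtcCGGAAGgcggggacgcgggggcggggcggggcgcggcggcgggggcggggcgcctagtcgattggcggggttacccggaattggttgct

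Rag1, which encodes a subunit of the V(D)J recombinase, had 1 GGGAA match in this stretch, and it lay within the member, whose Ikaros fold was 6.58 in homo and 3.08 in WT thymocytes. The homo value is that of a 2887 bp region that also covered another Rag1 member just upstream (8.73 in WT). Themis, which encodes a protein needed for positive selection of thymocytes, had no match of either motif under a member with a fold of 4.88 in homo and 4.04 in WT thymocytes. Utp3, a ribosome biogenesis gene, had 5 CGGAAG matches, 3 of them in the member (7.86 in homo, 6.53 in WT), and Rasa1, which encodes a Ras GTPase-activating protein, had 2 GGGAA and 1 CGGAAG match, all in the member (9.75 in homo, 6.47 in WT). The window of 1810037I17Rik likewise had 2 GGGAA matches and 1 CGGAAG match (7.80 in homo, 6.14 in WT).

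Over all 267 promoter windows overlapped by a member, belonging to 245 genes, GGGAA was present in 72.3%, against 77.1% of the 227 windows overlapped by a region shared with pre-B cells and 62.7% of all 32851 windows. The longer TGGGAA, which contains GGGAA, was in 31.8% of member windows, 25.6% of shared windows and 25.6% of all windows. CGGAAG, the core bound by many ETS factors, was in 41.6%, 40.5% and 16.9% of the same windows in that order, and GGAAGT, which can overlap CGGAAG, in 35.2%, 36.6% and 23.8%. TGTGGT, the core bound by RUNX factors, was in 14.6% of member windows, 14.5% of shared windows and 16.8% of all windows. GGGAA and CGGAAG cannot share a GGAA. Both strands were searched in the windows of 300 bases that RefSeq gives. The median GC content was 62.0% in member windows, 61.3% in shared windows and 52.7% in all windows, and the part of base composition in these shares was not tested. A match describes these letters only.

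Enrichment of the members was close in both genotypes and somewhat higher in homo. The fold of a region is the authors' own value, the peak caller's enrichment over background in a single library, so none of these differences could be tested against replicates. Members had a median fold of 4.81 in homo thymocytes (1.46 to 22.4) and 4.26 in WT thymocytes (1.48 to 20.7). The homo fold was above the WT fold in 818 members (62.7%), against 715 of the 1512 regions shared with pre-B cells (47.3%), whose median was 6.00 in homo and 5.76 in WT. A homo fold at least 1.5 times the WT fold was listed for 147 members (11.3%), and a WT fold at least 1.5 times the homo fold for 48 (3.68%). Among members, 125 (9.58%) reached a fold of 8 in 1 or both genotypes, against 523 (34.6%) of the regions shared with pre-B cells.

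The side on which the homo fold fell followed the WT fold by which the members had entered. Of 515 members with a WT fold under 4, 433 (84.1%) had a higher fold in homo, against 177 of 226 such regions shared with pre-B cells (78.3%). From a WT fold of 4 to under 8, 368 of 702 members (52.4%) were higher in homo, against 418 of 868 shared regions (48.2%). Of the 88 members with a WT fold of 8 or more, 17 (19.3%) were higher in homo, and their median was 8.80 in homo and 9.97 in WT. Of the shared regions with a WT fold of 8 or more, 120 of 418 (28.7%) were higher, a larger share than among members. Across members the folds of the genotypes had a Spearman correlation of 0.465 (n = 1305 regions, not independent replicates), and across regions shared with pre-B cells 0.694 (n = 1512). The homo list held 8221 regions and the WT list 3572, and homo regions were longer over 924 members (70.8%), with a median of 435 bp against 311 bp in WT. Listing in WT was required of every region here, and its part in these shares was not tested.

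**Figure D1:**
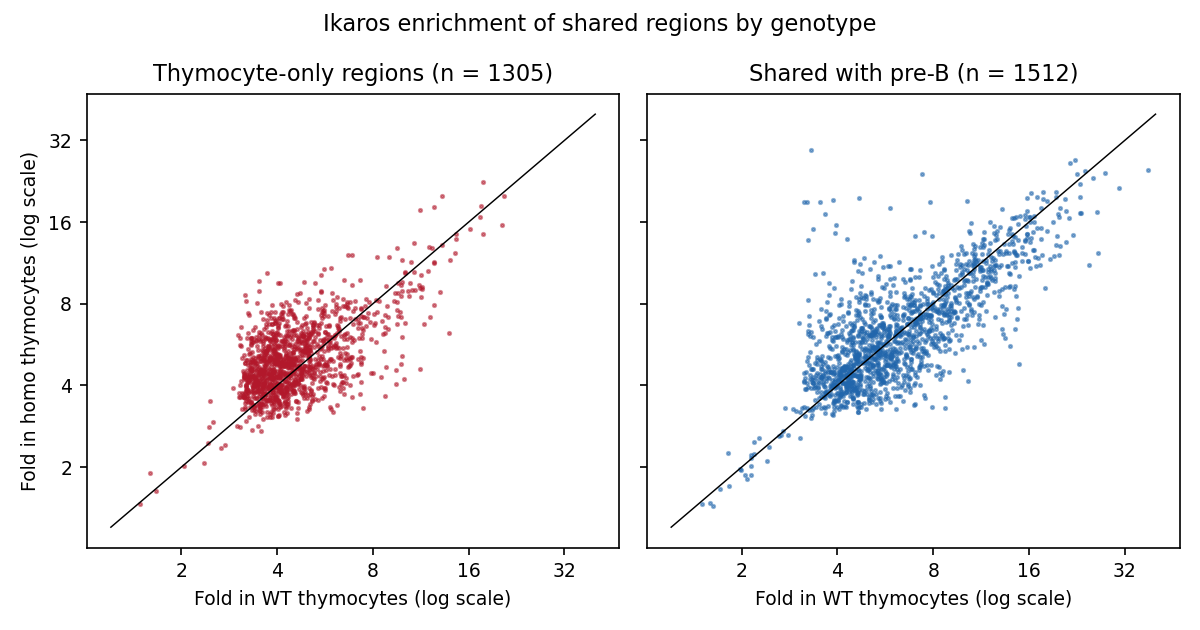
Ikaros fold of each region in homo thymocytes (vertical, log scale) against WT thymocytes (horizontal, log scale), for the 1305 thymocyte-only regions at left and the 1512 regions shared with pre-B cells at right; each point is a region and the line marks equal folds. Most thymocyte-only regions lie below a fold of 8 in both genotypes, and 62.7% of them lie above the line.

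At the edge of the rule, folds of members ran from low to above the medians. The smallest overlap with a homo region was 15 bp, near Cnot4 (3.58 in homo, 3.17 in WT), and only 2 members shared under 50 bp. The nearest excluded WT region, near Ubox5, lay 57 bp from a homo region and had a WT fold of 3.53. On the pre-B side, on assembled chromosomes, a member near Klf10 lay 208 bp from the closest pre-B region (4.39 in homo, 3.26 in WT), one near Srp14 340 bp (5.81 in homo, 4.13 in WT) and one near Bcl11a 525 bp (3.19 in homo, 6.00 in WT), while an excluded region near Snx6 shared 12 bp with one (5.04 in homo, 4.05 in WT). The median distance from a member to a listed pre-B region was 53657 bp, and 191 members (14.6%) had one within 10 kb.

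The most enriched members combined genes of T cell function with genes that have no known T lineage role. The highest WT fold was inside Tbc1d9, a gene of a Rab GTPase-activating protein family, at chr8:83238767-83239673, with 20.0 in homo and 20.7 in WT. The next lay in the variable part of the T cell receptor alpha locus, over the pseudogene segment Trav12-4 (chr14:53778027-53778683), with 15.7 in homo and 20.3 in WT. Across an end of Sh2d1a, which encodes the SLAM receptor adaptor SAP, a member at chrX:42502292-42503114 had 14.4 in homo and 17.8 in WT. Ptprc, which encodes the CD45 phosphatase, held one at chr1:138154210-138154774 with 15.1 in homo and 16.1 in WT.

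Others at this level lay both inside and far from protein-coding genes. A member in the lncRNA gene Gm41031 (chr13:97823685-97824338), 74255 bp from Arhgef28, had the highest homo fold, 22.4, against 17.8 in WT. A member at chr11:64762077-64763079 had no protein-coding gene closer than Elac2, 215950 bp away, with 20.0 in homo and 13.2 in WT. A member inside the phosphatase gene Ppm1h (chr10:122924165-122924873) had 18.1 in homo and 12.4 in WT. Members inside Cyb5a, the gene of a cytochrome b5 (18.3 in homo, 17.5 in WT), and Xrn1, the gene of an RNA exonuclease (12.3 in homo, 14.4 in WT), were at this level too. A member 48540 bp upstream of Themis, between that gene and Ptprk, had 13.8 in homo and 14.6 in WT, and one 16024 bp from Cd47, which encodes the ligand of SIRP-alpha, had 14.4 in homo and 14.6 in WT.

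The members that differed most by genotype were moderate in the lower genotype and strong in the other. The largest ratio of homo over WT was inside Prkcq, which encodes protein kinase C theta of the T cell receptor pathway, at chr2:11204255-11204641, with 10.3 in homo and 3.71 in WT. Members near Zfp395 (9.73 in homo, 3.49 in WT), inside Gng4 (8.63 and 3.17), Kdm4c (8.22 and 3.19) and Gorasp2 (8.89 and 3.50) followed, each pair giving homo before WT. In the other direction, a member inside F2r, which encodes the thrombin receptor, had 4.58 in homo and 11.2 in WT. Members near Rybp (3.65 in homo, 8.76 in WT), inside Smo, the Hedgehog signal transducer (4.22 and 10.0), near Tgfbr2, a TGF-beta receptor gene (117595 bp away, 4.04 and 9.45), and inside Gpnmb (3.31 and 7.47) came next. Without replicate ChIP libraries the spread behind these ratios is unknown.

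Some members lay at gene starts, many of them at genes outside the T lineage list. On chromosomes with RefSeq promoter windows, 214 of 1254 members (17.1%) overlapped such a window, against 11.9% of the regions shared with pre-B cells and 2.86% of those without a homo region. Genes with no window, such as Sh2d1a, could not enter these shares. Regions at their starts were placed under gene spans or between genes. A further 520 members (41.5%) overlapped a gene span by at least 1 bp and are called inside a gene here, and 520 lay between genes. Exons and introns were not analysed here. Promoter members had a homo fold above the WT fold in 159 of 214 (74.3%), those inside genes in 61.9% and those between genes in 58.5%. Promoter regions shared with pre-B cells showed 69.3%. Median WT folds were 3.98 for promoter members, 4.26 for those inside genes, 4.42 for those between genes and 5.30 for shared promoter regions. The part of WT fold in these shares was not tested.

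Aiolos regions hardly met the members. The homo thymocyte list held 184 Aiolos regions and the WT thymocyte list 25. A single member overlapped any of them, at chr9:3035458-3036454, with an Ikaros fold of 1.63 in homo and 1.66 in WT and an Aiolos fold of 2.25 in homo and 2.38 in WT thymocytes. The same member also overlapped an Aiolos region of homo pre-B cells (fold 1.74) and lay 1499 bp from a pre-B Ikaros region. Among regions shared with pre-B cells, 15 overlapped a homo and 7 a WT Aiolos region of thymocytes. The short Aiolos lists limit what this overlap can show, and absence from a list is not absence of binding.

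A member stood near many genes of the T lineage. A list of 92 genes of the T cell receptor, surface molecules, transcription factors, receptor signalling, Notch and recombination had 50 (54.3%) with a member within 50 kb, against 9.87% of all 21900 protein-coding genes. The background share of genes with a region shared with pre-B cells was 13.1%, and 44 T lineage genes (47.8%) had one. Both kinds stood near 25 of the T lineage genes, a member alone near 25, a shared region alone near 19 and neither near 23. Of 30 B lineage genes 7 (23.3%) had a member, of 20 myeloid genes 1 and of 17 NK cell genes 1. T lineage genes were longer, with a median span of 31188.5 bp against 17146 bp for all protein-coding genes, which widens the window around them. The lists were chosen with earlier results of these data known, and neighbours such as Rag1 and Rag2 were each counted for the same members. No test was made of these shares. Within 10 kb the count was 38 T lineage genes (41.3%) against 4.58% of all genes.

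**Figure D2:**
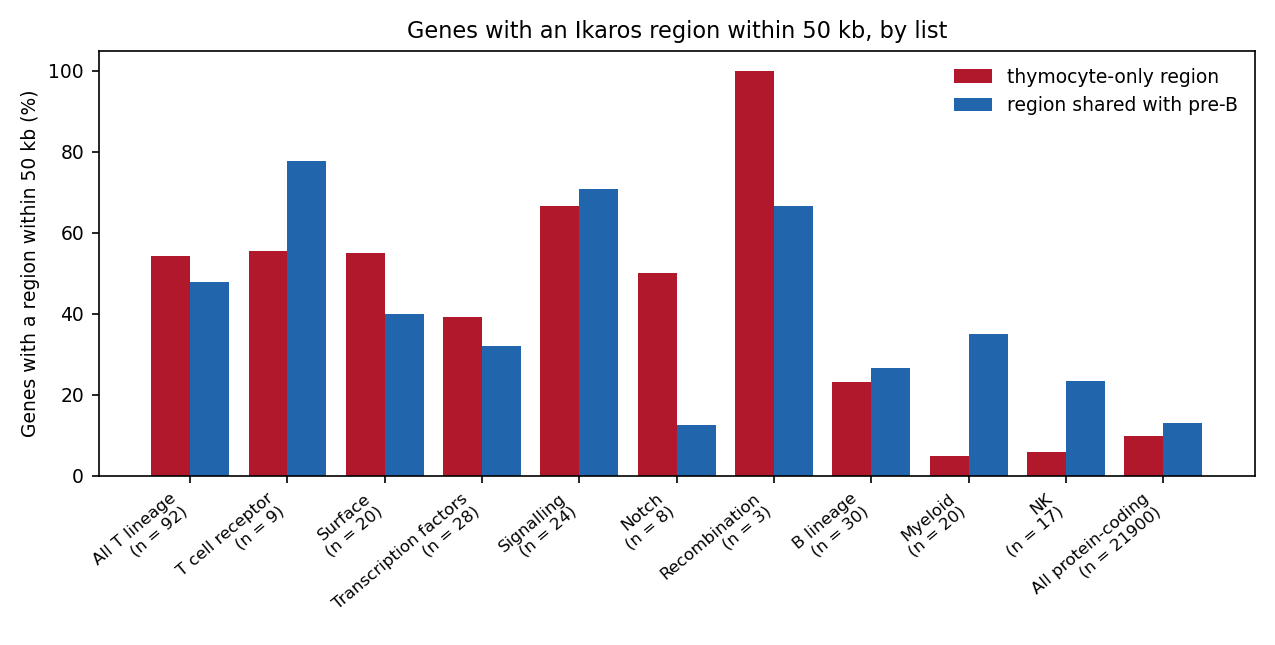
Share of genes (%) with an Ikaros region within 50 kb, for thymocyte-only regions and for regions shared with pre-B cells, by gene list (n genes under each). Thymocyte-only regions stood near 54.3% of T lineage genes and 9.87% of all protein-coding genes. The lists were chosen with earlier results of these data known.

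There were 81 distinct members within 50 kb of a T lineage gene. Their median fold was 5.30 in homo and 4.74 in WT, against 4.79 in homo and 4.22 in WT for the other 1224 members. The homo fold was higher in 50 of the 81 (61.7%) and in 62.7% of the others. A fold of 8 in 1 or both genotypes was reached by 12 (14.8%) of them and by 9.23% of the others.

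Of the T cell receptor and pre-receptor subunits, 5 of 9 genes had a member nearby. The alpha locus held 15 members, with folds of 5.26 to 15.7 in homo and 4.51 to 20.3 in WT, besides 5 regions shared with pre-B cells. The delta locus lies within it and held 1 of the 15 (6.04 in homo, 5.97 in WT). Trac, the alpha constant gene, had 4 within 50 kb, the strongest at chr14:54200079-54200472 with 8.22 in homo and 8.37 in WT. The beta locus held 1 member (3.80 in homo, 3.54 in WT) and the gamma locus none. Cd247, which encodes the zeta chain, had 1 inside its span (4.45 in homo, 4.34 in WT). Cd3e, Cd3d, Cd3g and Ptcra, the genes of the CD3 chains and the pre-receptor alpha chain, had no member within 50 kb. Of the immunoglobulin loci, the heavy chain locus held 2 members and the kappa and lambda loci none.

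Coreceptor and surface genes included one of the densest stretches. Cd8b1 and Cd8a, the neighbouring genes of the CD8 chains, had 7 members between them over chr6:71302203-71374765, with homo folds of 4.17 to 7.11 and WT folds of 3.54 to 6.59. The member with the highest WT fold there lay inside Cd8b1 (5.07 in homo, 6.59 in WT), and that with the highest homo fold 20359 bp from it (7.11 in homo, 4.07 in WT). Cd4, the coreceptor of helper T cells, had a member across an end of its span (3.90 in homo, 5.37 in WT). Another lay 15472 bp away (3.45 in homo, 4.19 in WT), and both were lower in homo. Thy1, a classical thymocyte surface marker, had 3 members, with 8.95, 8.76 and 4.80 in homo and 5.49, 9.57 and 3.96 in WT. Cd2, an adhesion and costimulation receptor gene, had 1 inside (4.58 in homo, 6.07 in WT), and Cd28, the gene of the main costimulatory receptor, 1 inside (3.59 in homo, 3.45 in WT). Ccr9, the receptor of a thymus-homing chemokine, had 1 upstream (5.46 in homo, 4.92 in WT). Il2ra, Il7r, Ccr7 and S1pr1, all receptor or homing genes of T cells, were among the 9 of 20 surface genes with none.

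Transcription factor genes had members in 11 of 28 cases. Tcf7, which encodes TCF-1 and acts at T lineage entry, had 1 inside (7.54 in homo, 5.57 in WT), 1 starting 3661 bp upstream (4.995 in homo, 6.77 in WT) and 1 30679 bp upstream (6.32 in homo, 4.44 in WT). Bcl11b, the T commitment factor, had 1 inside (6.01 in homo, 3.95 in WT). Runx1, a factor of early thymocytes and many blood lineages, had 2 inside, with 9.54 and 6.53 in homo and 9.63 and 7.38 in WT. Tox, needed for CD4 lineage development, had 1 inside (7.06 in homo, 7.67 in WT), and Satb1, a chromatin organiser of thymocytes, 1 inside (5.55 in homo, 5.06 in WT). Zbtb7b, which encodes ThPOK, had 1 upstream (4.70 in homo, 6.30 in WT), and Myb had 1 beyond its end (7.40 in homo, 3.23 in WT). Ikzf1 itself had 2 inside, with 4.25 and 4.62 in homo and 3.59 and 4.33 in WT. Gata3, Lef1 and Ikzf3 had no member within 50 kb.

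Of 24 receptor signalling genes, 16 had a member nearby. Prkcq had 4 members along its span, with 3.55, 7.97, 10.3 and 4.72 in homo and 5.26, 6.64, 3.71 and 5.75 in WT from the gene start onwards. Sla encodes a Src-like adaptor that lowers receptor signalling in thymocytes. A member at chr15:66831809-66832329 crossed an end of its span, with 17.7 in homo and 11.3 in WT. Lcp2, which encodes the adaptor SLP-76, had 2 inside, with 9.40 and 4.07 in homo and 6.87 and 3.64 in WT. Lat, the membrane adaptor gene, had 1 beyond its end (7.55 in homo, 6.94 in WT), and Vav1, an exchange factor gene, 1 inside (7.04 in homo, 6.55 in WT). Grap2, the gene of the adaptor GADS, had 2, with 4.75 and 4.98 in homo and 3.41 and 6.51 in WT. The kinase gene Txk had 1 upstream (7.18 in homo, 5.61 in WT). Lck and Fyn, kinases of the same pathway, had none within 50 kb.

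**Figure D3:**
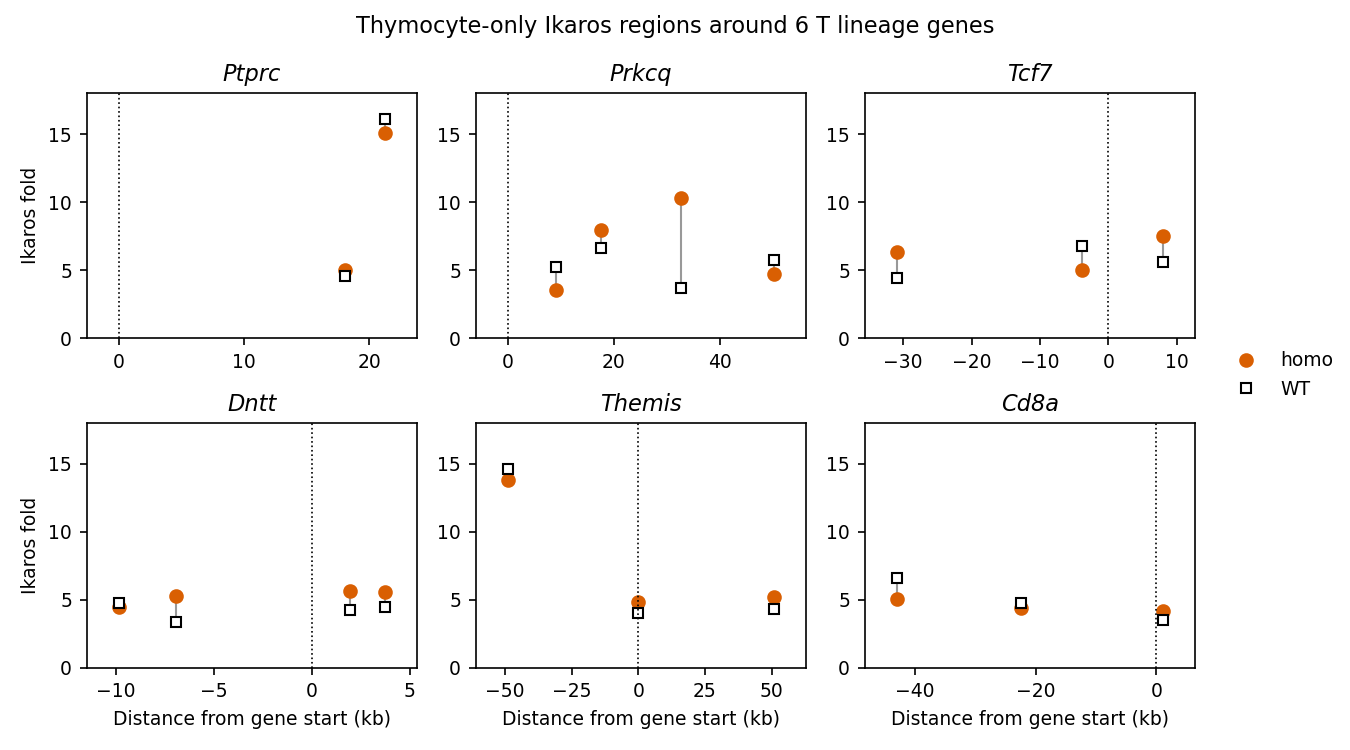
Ikaros fold (vertical) of each thymocyte-only region within 50 kb of 6 T lineage genes against the distance of its centre from the gene start along the gene (kb, horizontal, positive into the gene), in homo (filled circles) and WT (open squares) thymocytes; the dotted line is the gene start. Of the regions shown, one of Prkcq has the widest gap between genotypes (10.3 in homo, 3.71 in WT), while the strongest regions of Ptprc and Themis stand close in both genotypes.

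All 3 recombination genes had members. Dntt, which encodes the template-independent polymerase that adds bases at receptor gene joints, had 4 within 13.8 kb, with 4.46, 5.30, 5.67 and 5.56 in homo and 4.74, 3.34, 4.24 and 4.46 in WT. Rag1 had a second member just upstream of the one over its promoter, with 6.58 in homo and 8.73 in WT; a single homo region covered both. The same members lay within 50 kb of the adjacent Rag2. Of 8 Notch genes 4 had a member: Notch1 (4.21 in homo, 5.55 in WT), Dtx1, a Notch target gene (3.61 in homo, 4.31 in WT), Rbpj, the DNA-binding partner of Notch (4.73 in homo, 4.07 in WT), and the coactivator gene Maml2 (4.37 in homo, 4.83 in WT). Notch3, Hes1, Hes5 and Nrarp had none.

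Members gathered in places. With neighbours closer than 50 kb joined, the 1305 members formed 1094 loci, of which 954 held 1 region and 140 held 2 or more, 351 regions in all, and 19 held at least 4. Ccnd3, the gene of the D-type cyclin of thymocyte expansion, held 7 over 69.7 kb, with homo folds of 4.43 to 11.6 and WT folds of 3.01 to 14.0. Beyond Bcl11b, 8 members stood 675 to 984 kb away in a stretch whose nearest protein-coding gene is Gm52008, the strongest with 16.6 in homo and 17.4 in WT. The locus with the most regions, 9, was on an unplaced contig with no gene assigned (folds of 3.47 to 5.65 in homo and 3.15 to 5.92 in WT). Stretches of 4 also lay 400346 bp from Satb1 and 173161 bp from Lef1, with Kcnh8 (285304 bp) and Rpl34 (120811 bp) closer to them, and 74518 bp from Rasgrp1, a Ras activator gene of thymocytes. All were too far to count within 50 kb.

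RNA gave a measure that the rule did not use, though in B lineage cells and not in thymocytes. A library held 1888871 to 6257527 counts in homo and 5556696 to 6187816 in WT pre-B cells, and 8592557 to 9048055 in homo and 5443344 to 6492192 in WT pre-pro B cells. Levels are in CPM, counts scaled to library size, and changes are log2 ratios from edgeR's quasi-likelihood test, with p-values adjusted by Benjamini-Hochberg over all genes tested and called at 0.05. The pre-B label fitted most of its markers. In WT, 23 of 30 B lineage genes were called higher and 3 lower in pre-B than in pre-pro B cells. Pax5 and Ebf1 had 207 and 633 CPM in WT pre-B and 10.9 and 43.7 CPM in WT pre-pro B cells. Cd3e, Cd3d and Cd3g had 2, 1 and 2 counts over all homo pre-B libraries and 0, 2 and 0 over all WT ones, too few to compare genotypes. Reads of plasmacytoid dendritic cell markers were high in pre-pro B cells, where a list of 15 such genes, picked after the levels were seen, summed to 5438 to 5674 CPM in homo and 7083 to 7965 CPM in WT. In bulk samples fewer cells of a type and less RNA per cell cannot be told apart.

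Between the stages, the T lineage genes with a member mostly had less RNA in pre-B cells. In WT, 37 of the 43 such genes tested were called, 13 higher and 24 lower (55.8%) in pre-B than in pre-pro B cells, where 31.0% of all genes were called higher and 33.3% lower. Their median log2 change was −0.76, against −0.01 over all 12440 genes tested. Of 40 T lineage genes without a member, 16 were higher and 15 lower (37.5%), with a median of 0.07. Of the 860 protein-coding genes nearest to a member, 624 (72.6%) were called, 304 higher and 320 lower, against 64.3% of all genes, 67.2% for regions shared with pre-B cells and 72.7% for WT regions without a homo region. Whether these shares differ was not tested, and 232 of the genes nearest to shared regions were also nearest to a member.

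Coreceptor genes made up the most extreme part of the lower genes. Cd8a had no counts in WT pre-B cells and 153, 128 and 121 CPM in WT pre-pro B cells, and was at least 789-fold lower in pre-B cells (floor of 3 counts over the group). Cd8b1 likewise had none in pre-B cells against 73.6, 64.9 and 60.5 CPM in pre-pro B cells, at least 391-fold lower. Cd4 had 0.16, 0.18 and 0.161 CPM in pre-B cells against 538, 531 and 484 CPM in pre-pro B cells, 3 counts against 9267 (ratio of pre-pro B over pre-B 3061, 95% interval 1047 to 14844 for counting error only). The pre-B and pre-pro B libraries did not overlap for any of these genes. Ccr9 had 1.92, 1.62 and 2.09 CPM in pre-B and 607, 565 and 544 CPM in pre-pro B cells, a log2 change of −8.25 ± 0.27 (SE, adjusted p = 3.11e-14). Notch1 fell to 298 ± 12.3 CPM in pre-B cells, against 854 ± 22.6 CPM in pre-pro B cells (SD, n = 3 each; edgeR log2 −1.53, adjusted p = 4.63e-08), and Dntt to 92.9 ± 9.96 against 272 ± 12.3 CPM (edgeR log2 −1.56, adjusted p = 8.27e-07). The plasmacytoid dendritic cell marker Siglech moved with these genes, at 0.327 CPM in WT pre-B and 688 CPM in WT pre-pro B cells, and 14 of the 15 genes of that list were called lower in pre-B cells. Their part in the result was not tested.

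The 13 higher genes included the recombinase and several signalling genes. Rag1 had 1067 ± 70.3 CPM in pre-B and 112 ± 13.3 CPM in pre-pro B cells (SD, n = 3 each; edgeR log2 3.24, adjusted p = 1.06e-09), and Rag2 170 ± 17.7 against 12.3 ± 1.66 CPM (edgeR log2 3.76, adjusted p = 9.13e-10). Dtx1 had 71.7 ± 4.78 CPM in pre-B and 1.03 ± 0.578 CPM in pre-pro B cells (edgeR log2 6.04, adjusted p = 3.66e-10), although Notch1 was lower. Cd2 was higher as well, at 97.2 ± 5.06 against 1.77 ± 0.353 CPM (edgeR log2 5.74, adjusted p = 2.88e-11). Myb, Rhoh, Nfatc3, Slamf6, Prkcq, Zap70, Ubash3a, Runx1 and Ets1 completed the 13, with log2 changes of 1.44, 1.51, 1.09, 1.02, 1.35, 1.17, 1.96, 0.72 and 0.44. Bcl11b and Themis, both close to members, had at most 0.343 and 0.164 CPM in any homo or WT library of either stage.

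Among other genes nearest to a member, the largest rises were in Itga9, an integrin chain gene (96.2 ± 4.57 CPM in pre-B, 0.508 ± 0.179 CPM in pre-pro B cells, edgeR log2 7.51, adjusted p = 2.78e-14), Rasgrp1 (249.1 ± 14.2 against 1.79 ± 0.556 CPM, edgeR log2 7.09, adjusted p = 5.84e-12) and Trib2, a pseudokinase gene (256 ± 8.57 against 1.82 ± 0.748 CPM, edgeR log2 7.09, adjusted p = 5.15e-15). Cldn10, a tight junction gene, had 13.7 ± 0.952 CPM in pre-B cells against 2 counts in pre-pro B cells. The largest falls besides the coreceptors were in Lag3, an inhibitory receptor gene (1 count against 4998, ratio of pre-pro B over pre-B 4952, 95% interval 888 to 195633), in Ncald, a neuronal calcium sensor gene (none against 805 counts, at least 266-fold lower), and in St8sia1, a sialyltransferase gene (1 count against 3093).

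In pre-B cells, 10 of the 33 tested T lineage genes with a member (30.3%) were called between homo and WT, where 15.9% of all 11411 genes were called. Satb1, Runx1, Prkcq and Sla were higher in homo (12.1%, against 7.42% of all genes), and Cd2, Zbtb7b, Lcp2, Ubash3a, Grap2 and Vav1 lower (18.2%, against 8.45%). Of 29 T lineage genes without a member 12 were called (41.4%). Ikzf3 itself had 494, 463 and 598 CPM in homo and 548, 553 and 519 CPM in WT pre-B cells and was not called; RNA per gene does not show the substitution.

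The 4 Prkcq members had 3.55, 7.97, 10.3 and 4.72 in homo and 5.26, 6.64, 3.71 and 5.75 in WT thymocytes. The pair of 10.3 and 3.71 gave the largest ratio of homo over WT fold among members. A region shared with pre-B cells lay 10937 bp upstream (13.7 in homo, 12.5 in WT thymocytes). Any link of these folds to RNA was not tested. Prkcq RNA was 47.9, 35.2 and 42.7 CPM in homo and 10.4, 11.7 and 13.1 CPM in WT pre-B cells. The lowest homo library was above the highest WT library, and the log2 change was 1.85 ± 0.19 (SE, edgeR, adjusted p = 0.00014). Satb1 had 257, 242 and 321 CPM in homo and 126, 149 and 146 CPM in WT pre-B cells (edgeR log2 0.97 ± 0.14, adjusted p = 0.00139). Sla had 171, 154 and 159 CPM in homo and 109, 106 and 96.4 CPM in WT pre-B cells (edgeR log2 0.65 ± 0.10, adjusted p = 0.00142). Neither gene's genotypes overlapped. Picking genes by their calls favours such gaps, here and for the called genes below, and their share over all genes was not counted. Runx1 had 323, 302 and 325 CPM in homo and 227, 240 and 247 CPM in WT pre-B cells (edgeR log2 0.42 ± 0.10, adjusted p = 0.0144).

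Grap2 and Lcp2, genes of partner adaptors, were among the lower ones, whereas the adaptor gene Sla was higher and Lat was not called. Grap2 had 10.9, 14.7 and 8.20 CPM in homo and 42.7, 43.5 and 39.5 CPM in WT pre-B cells (edgeR log2 −1.81 ± 0.23, adjusted p = 0.000557). Lcp2 had 5.86, 6.51 and 4.10 CPM in homo and 12.5, 15.1 and 14.8 CPM in WT (edgeR log2 −1.27 ± 0.22, adjusted p = 0.00298), so both partners of the SLP-76 and GADS pair stood lower in every homo library than in any WT library. Zbtb7b had 3.01, 1.71 and 0.586 CPM in homo and 11.3, 7.18 and 8.38 CPM in WT pre-B cells (edgeR log2 −2.09 ± 0.35, adjusted p = 0.00304). Ubash3a, the gene of a phosphatase that dampens receptor signalling, had 18.5, 26.5 and 16.4 CPM in homo and 33.9, 37.0 and 44.3 CPM in WT (edgeR log2 −0.86 ± 0.19, adjusted p = 0.0116). Vav1 averaged 169 ± 23.0 CPM in homo and 240 ± 10.4 CPM in WT (SD, n = 3 each; edgeR log2 −0.49, adjusted p = 0.0215), and Cd2 68.3 ± 14.9 CPM in homo and 97.2 ± 5.06 CPM in WT (edgeR log2 −0.48, adjusted p = 0.042). With a term for the sex of the mice, read from Xist and Y genes since 2 of 3 homo and no WT libraries were XY, Cd2, Runx1, Ubash3a and Vav1 were no longer called (adjusted p = 0.0705, 0.0581, 0.055 and 0.109). The same 4 genes were those that lost their call when a library was left out: Vav1 without WT replicate 1, 2 or 3 or homo replicate 1 (adjusted p = 0.0934, 0.0728, 0.0594 and 0.0547), Cd2 without WT replicate 1, 2 or 3 or homo replicate 2 (0.132, 0.143, 0.0882 and 0.115), Runx1 without WT replicate 1 or 2 or homo replicate 1 (0.0865, 0.0712 and 0.0512) and Ubash3a without WT replicate 3 or homo replicate 1 (0.0585 and 0.0561).

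**Figure D4:**
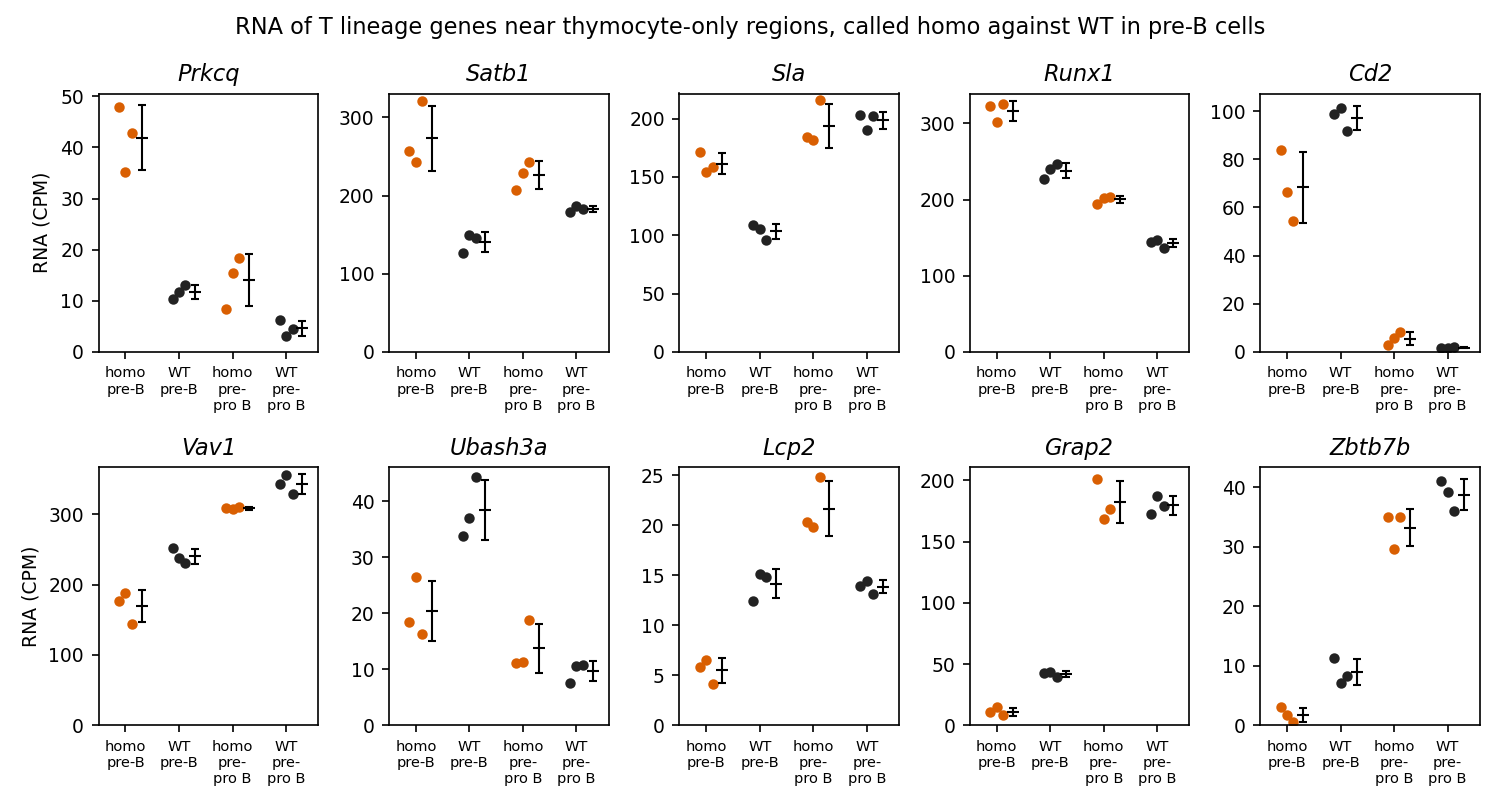
RNA level (CPM, vertical, from 0) of the 10 T lineage genes near thymocyte-only regions that were called in homo against WT pre-B cells, in each homo (orange) and WT (black) library of the pre-B and pre-pro B stages; bars are mean ± SD of 3 libraries. Log2 changes run from −2.09 for Zbtb7b to 1.85 for Prkcq. The homo and WT pre-B libraries do not overlap for any of the 10 genes, but picking genes by their calls favours this. The uncalled T lineage genes Slamf6, Cd5, Cd96 and Rbpj do not overlap either, and the share over all genes was not counted.

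Of the 801 nearest genes tested in pre-B cells, 183 (22.8%) were called, 86 higher and 97 lower in homo, against 15.9% of all genes, 7.42% higher and 8.45% lower. The share was 23% for regions shared with pre-B cells and 23.1% for WT regions without a homo region. Dusp4, the gene of a MAP kinase phosphatase, had 52.5, 27.6 and 19.9 CPM in homo and 1.44, 1.80 and 1.29 CPM in WT pre-B cells (edgeR log2 4.51 ± 0.41, adjusted p = 7.08e-05). Adamts14, a protease gene, had 106, 87.9 and 38.6 CPM in homo and 5.59, 7.90 and 5.32 CPM in WT (edgeR log2 3.68 ± 0.36, adjusted p = 0.000115). Both genes varied widely among homo libraries but lay above every WT library. Lrguk, Klrb1c, Wipi1 and Frmd4b were the others highest by rule, with log2 changes of 2.80, 2.46, 2.41 and 2.40; Klrb1c, an NK receptor gene, has close copies beside it, so its counts are uncertain. Enc1, which encodes a BTB and kelch protein, had 2.22, 2.95 and 3.51 CPM in homo and 22.4, 23.5 and 24.5 CPM in WT pre-B cells (edgeR log2 −3.09 ± 0.22, adjusted p = 2.3e-05). Cyth4, an ARF exchange factor gene of blood cells, Ndfip2, an adaptor gene of ubiquitin ligases, Golim4, Cldn10 and the innate receptor gene Tlr1 followed with −3.03, −2.83, −2.59, −2.59 and −2.43. Tbc1d9 lay around the member with the highest WT fold, with 20.0 in homo and 20.7 in WT thymocytes. Its RNA was 6.93 ± 2.73 CPM in homo and 0.948 ± 0.14 CPM in WT pre-B cells (SD, n = 3 each, edgeR log2 2.73, adjusted p = 0.00356). It was named for that member and lay below 10 CPM, and any link of fold to RNA was not tested. Ptprc, Cyb5a and Xrn1, around other members with high folds, were not called (edgeR log2 0.37, 0.04 and 0.16, adjusted p = 0.330, 0.918 and 0.351). Sh2d1a and Ppm1h, also around such members, were not tested in pre-B cells. Summed RNA of 17 NK cell genes was 26.2 to 29.9 CPM in homo and 3.36 to 4.31 CPM in WT pre-B cells, and its part in these results was not tested.

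In pre-pro B cells the genotype calls were more numerous and less stable. Of the 847 nearest genes tested, 240 (28.3%) were called, 120 higher and 120 lower in homo, against 22.4% of all genes, 12.0% higher and 10.4% lower. The share was 30.1% for regions shared with pre-B cells and 30% for WT regions without a homo region. In a fit with each library's size as a term 18 were called and with a sex term 50, and between 93 and 171 when a library was left out. Of 43 T lineage genes with a member, 22 were called (51.2%), 11 higher and 11 lower, of which 1 kept its call with the library size term and 6 with the sex term. Of 40 T lineage genes without a member, 14 were called (35%). Marker sums moved with genotype: 17 NK cell genes summed to 308 to 512 CPM in homo and 123 to 135 CPM in WT, with 15 called higher, and 20 myeloid genes to 321 to 408 CPM in homo and 182 to 194 CPM in WT, with 10 of 16 tested called higher. Of the 15 plasmacytoid dendritic cell genes, 7 were called lower and 0 higher, with a median log2 change of −0.49. The part of these cells in the result was not tested.

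Among T lineage genes with a member, the 11 called higher in homo pre-pro B cells were Txk, Skap1, Zap70, Cd2, Prkcq, Cd6, Cd5, Cd247, Cd96, Runx1 and Satb1. Their log2 changes were 3.22, 2.65, 1.67, 1.58, 1.58, 1.13, 0.99, 0.85, 0.73, 0.44 and 0.26 in that order. The receptor genes Cd4 and Cd8a were among the 11 called lower, whereas Cd8b1 was not called (edgeR adjusted p = 0.0826). Cd4 had 376, 351 and 350 CPM in homo and 538, 531 and 484 CPM in WT (edgeR log2 −0.58 ± 0.17, adjusted p = 0.0438), and Cd8a 96.8 ± 14.0 CPM in homo and 134 ± 16.7 CPM in WT (SD, n = 3 each; edgeR log2 −0.52, adjusted p = 0.0129). The plasmacytoid dendritic cell genes moved the same way by a median of −0.49, and their part in these values was not tested. Both lost the call with the library size term (adjusted p = 0.477 and 0.213) and with the sex term (0.275 and 0.074). F2r, whose member was lower in homo thymocytes, had 7.15, 14.7 and 15.8 CPM in homo and 1.68, 0.328 and 1.54 CPM in WT pre-pro B cells (edgeR log2 3.36 ± 0.47, adjusted p = 0.00276; 0.064 with the library size term). Itgam, the gene of an integrin of myeloid and NK cells with 2 members upstream, had 30.8, 45.3 and 50.4 CPM in homo and 9.50, 11.5 and 14.5 CPM in WT (edgeR log2 1.78 ± 0.32, adjusted p = 0.00805; 0.12 with library size and 0.0578 with the sex term). Adamts14, Klrb1c, Kif14 and Neurl3 were the others highest by rule (log2 3.19, 2.41, 1.88 and 1.73), and Adamtsl2, Oasl1, Peli2, Abtb2 and Cmya5 the others lowest (−1.65, −1.37, −0.56, −0.55 and −0.54).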

How the data were processed

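Members and gene lists were chosen with earlier results of these data known. The study held 30 samples here: 18 RNA libraries, 8 ChIP libraries with a region list each, and 4 input samples with no file used.

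The authors called regions per library and deposited them in the broadPeak layout, with a fold (ratio of signal over the caller's background) computed by the authors. The −log10 p and −log10 q values were computed by the authors in the same step, and the deposited score is the −log10 q multiplied and truncated by the caller. The deposited RNA files hold raw counts per gene symbol, without normalization. STAR 2.7.0, HISAT2 2.1.0, MACS2 2.1.1 and mm10 are named in the submitters' processing notes without roles, and the counter and its use of strand are not given in the sources used here. No genome was used, so only RefSeq promoter sequences are shown.

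Regions counted as overlapping with at least 1 bp, and the homo fold of a region is the highest of its overlapping homo regions. Members closer than 50 kb were joined into loci. Genes came from RefSeq (GRCm38.p6), all 92 T lineage genes matched, and 1011 of the 1036 genes nearest to a member had RNA counts. No promoter windows were used for 41 members on chromosome 18, and 51 members in all were left out of placement. Some genes on other chromosomes, such as Sh2d1a and Cd4, had no window either. Regions were named by the highest folds (10 by WT, 5 by homo, and any overlapped by Aiolos). T lineage genes were named if a member lay within 50 kb, and other nearest genes were named for the largest change among those called with at least 10 CPM, up to 6 per direction.

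Gene counts (1888871 to 9048055 per library, which limits precision for low genes) were filtered with filterByExpr, scaled by TMM and tested with edgeR 4.0.16's robust quasi-likelihood test in R 4.3.3, with Benjamini-Hochberg adjustment over all genes tested. Lines naming no gene were left out, among them reads in no feature (29.8% to 40.1% of a library) and ambiguous reads (0.730% to 0.882%). The genotype fits used the 9 libraries of a stage and the stage fit all 18. The SE given with a log2 change was back-calculated, as the absolute log2 change over the square root of the test's F value. Alternatives were DESeq2 1.42.0, other filters, the gene end as position, a library size term, a replicate block, leaving out each library and, added after seeing the data, a sex term. No libraries were duplicates (chi-square per gene 1.44 to 20.2 within groups). Intervals and floors cover counting error only. The overlap code and the fits were tested on simulated data. Some genes of the lists are counted but not reported here by name.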

Additional observations from a re-analysis of the deposited data

Results flagged for a closer look

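The difference between homo and WT was not the same in both B cell stages for 19 of the 64 named genes that could be tested, and for 14.5% of all genes (edgeR interaction term, adjusted over all genes). Values are the log2 change of homo over WT in pre-B cells minus that in pre-pro B cells, with 3 libraries in each group and no term for the replicate number. Many of these genes were named for a large change in 1 stage on the same libraries, which favours a difference between stages, so the 2 shares cannot be set against each other. Among T lineage genes near a member, Satb1 (0.69) and Sla (0.72) had the higher difference in pre-B cells. Cd2 (−2.07), Thy1 (−2.13), Zbtb7b (−1.82), Zap70 (−1.46), Lcp2 (−1.87), Ubash3a (−1.31) and Grap2 (−1.78) had the lower one. Thy1 was not tested by itself in pre-B cells, where it had 9 counts in homo and 39 in WT. Among other genes nearest to a member, Dusp4 (3.68), Lrguk (4.03) and Frmd4b (2.60) were on the higher side. Kif14 (−1.65), Neurl3 (−2.29), Enc1 (−3.25), Cyth4 (−2.49), Ndfip2 (−2.75), Golim4 (−2.44) and Cldn10 (−3.66) were on the lower side. Lrguk (3 counts in homo, 5 in WT) and Cldn10 (7 in homo, 2 in WT) were not tested by themselves in pre-pro B cells, so the values of these 3 genes rest on few counts in 1 stage. Library depth, sex and the marker sums given beside the pre-pro B results differ between the genotypes of that stage, and their part in these differences was not tested.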

How the results depend on the processing

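The 1305 members became 666 when a fold of 4 was required in both genotypes, and stayed within 871 to 1293 under the other rules. T lineage genes with a member within 50 kb numbered 41 to 50. The nearest genes called in homo against WT pre-pro B cells, 240 in the report, were 18 with a library size term, 50 with the added sex term and 93 to 171 when a library was left out. The replicate block gave 245. In pre-B cells the 183 called became 336 with the library size term, 115 with the replicate block, and 114 to 203 when a library was left out. The sex term gave 141. Between stages, 624 called became 590 to 599 without a library and 614 with the block. Same-numbered libraries did not all deviate together, so the numbers were not taken as pairs. Between the WT stages each library correlated best with its own number (r = 0.0621, 0.0586 and 0.107), and the sex read from Xist and Y genes matched by number across stages in every genotype, a hint from the data and not from the design. With the block, Cd2, Runx1 and Vav1 were not called in pre-B cells (adjusted p = 0.081, 0.0664 and 0.0707). Txk was not called between the stages without WT pre-B replicate 1, 2 or 3 (adjusted p = 0.0656, 0.0606 and 0.0656) or WT pre-pro B replicate 1 (0.128). No called result reversed. The library size term was not run between stages. Folds rest on 1 library each, and genes with few counts are the least precise.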

Other observations

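The 7 B lineage genes with a thymocyte-only Ikaros region within 50 kb were Blnk, Syk, Vpreb1, Igll1, Cd72, Cd79b and Cr2. Syk, which encodes a kinase of the B cell receptor and the pre-T cell receptor pathways, had a region inside its span, with a fold of 4.71 in homo and 4.04 in WT thymocytes. The 4 regions counted for Blnk, which encodes a B cell adaptor, lay 25058 to 38693 bp away and were those described for the neighbouring Dntt. Vpreb1 and Igll1, the surrogate light chain genes, shared 1 region (4.53 in homo, 5.57 in WT). Cd72, an inhibitory receptor gene of B cells, had 2 regions, with 5.70 and 3.93 in homo and 3.31 and 6.44 in WT. Cd79b, which encodes a B cell receptor chain, had 1 at 41999 bp (4.48 in homo, 4.18 in WT), and Cr2, the gene of a complement receptor, 1 at 5252 bp (3.94 in homo, 3.74 in WT).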
